A study of Mus musculus with 11 samples.

Results

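The cytochrome P450 (Cyp) genes of the liver were examined in 11 female mice. Members were the protein-coding genes whose symbol begins with Cyp and a family number, with the exception of Cyp7a1, Cyp7b1, Cyp8b1 and Cyp27a1, which make bile acids. This gave 96 of 31956 genes, of which 21666 were protein-coding. A further 19 Cyp symbols belonged to pseudogenes or other genes that are not protein-coding and were left out. Of the 96 members, 88 had at least 1 read in at least 1 mouse and 67 passed the filter on low counts in each comparison.

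The mice belonged to 2 conplastic strains, in which the mitochondrial DNA of another inbred strain is combined with the nuclear genome of C57BL/6J. C57BL/6J-mtALR/J mice (B6-mtALR) carry m.4738C>A in mt-Nd2 and C57BL/6J-mtBPL/J mice (B6-mtBPL) carry m.11902 T>C in mt-Nd5, so that both strains have a mutation in complex I of the respiratory chain and neither serves as an unmutated control. The B6-mtALR group comprised 4 mice aged 3 months (replicates 4 to 7) and 3 mice aged 5 months (replicates 1 to 3), and the B6-mtBPL group comprised 2 mice aged 3 months (replicates 1 and 2) and 2 aged 4 months (replicates 3 and 4). All mice were kept on the same nuclear background and received no treatment named in the labels, and the hour of tissue collection is not given in the sources used here. The text on RNA extraction refers to a different pair of strains, and groups were taken from the strain given for each sample. Each mouse gave 1 poly(A) library, with a total estimated count of 18145815 to 25074045.

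P450 enzymes are heme proteins that insert an oxygen atom into their substrate, mostly in the endoplasmic reticulum, where they receive electrons from NADPH-cytochrome P450 reductase (Por). Families 1 to 3 oxidise drugs, toxins and steroids, family 4 oxidises fatty acids, and others make or degrade sterols, steroid hormones, vitamin D and retinoic acid. Many Cyp genes of the mouse lie in tandem clusters of recent duplicates, and the level of several differs between the sexes or is set by nuclear receptors such as CAR, PXR and PPARalpha.

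Livers of both strains expressed a broad set of Cyp genes that was led by Cyp2e1, which oxidises ethanol and other small molecules. The mean level was at least 100 CPM, a count scaled by library size and TMM to a common depth, for 33 members, 10 to 100 CPM for 19, 1 to 10 CPM for 11 and under 1 CPM for 25. The remaining 8 members, Cyp24a1, Cyp2c66, Cyp2j11, Cyp2j12, Cyp2w1, Cyp4a29, Cyp4f37 and Cyp4f40, had no count in any mouse, and the limit that a count of 0 allows was 3 counts over the 11 libraries, or 0.0119 CPM. This limit covers counting error only.

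The level of Cyp2e1 was 5592 ± 1016 CPM (SD, n = 11), which amounted to 23.98% of all counts on Cyp genes. Together with Cyp3a11, the major drug-oxidising member of its subfamily, it held 34.9%, and the 10 highest members held 60.9%. By family, Cyp2c genes held 23.2%, Cyp3a genes 17.4%, Cyp2d genes 7.06%, Cyp2a genes 6.97% and Cyp4a genes 5.14% of the Cyp counts. Set per kilobase of transcript, the order of levels was Cyp2e1 (3061 ± 556 CPM per kilobase), Cyp3a11 (1090 ± 199), Cyp2c69 (534), Cyp2d26 (494), Cyp2c29 (469), Cyp3a41a (414) and Cyp2c37 (392), with SD over 11 mice. The ranges of Cyp2e1 and Cyp3a11 over the mice did not overlap. From Cyp2c69 downwards, the ranges of neighbours in this order overlapped, and the levels below Cyp2c69 fell slowly.

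**Figure D1:**
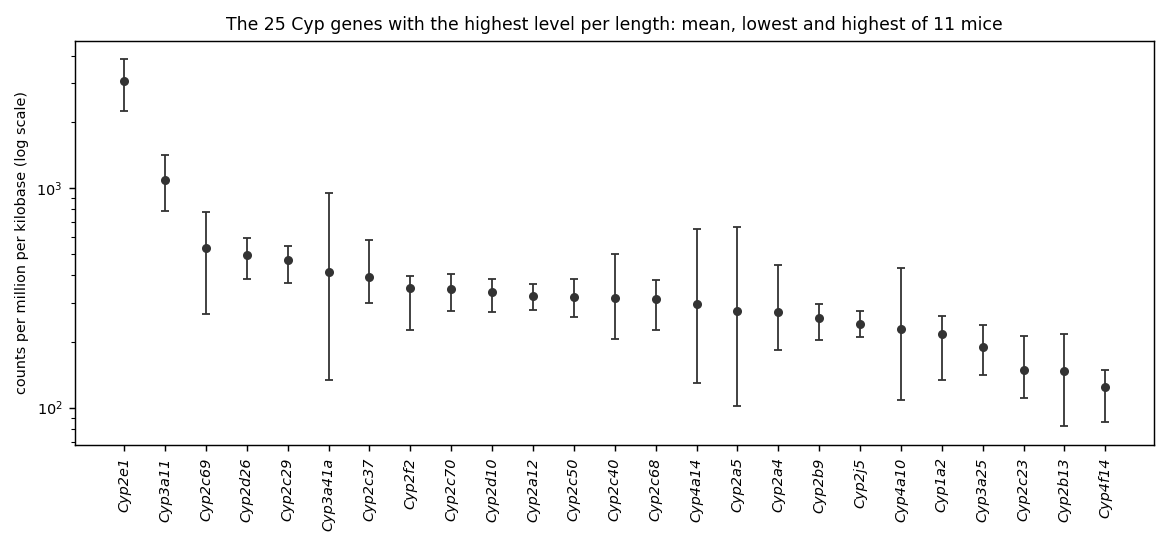
Level of the 25 Cyp genes with the highest CPM per kilobase of transcript, on a log axis. Points are the mean of 11 mice and bars reach from the lowest to the highest mouse. Cyp2e1 stands apart at 3061, and the bars of Cyp3a41a, Cyp4a14 and Cyp2a5 are among the widest.

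Most steroid-hormone enzymes of the adrenal gland and gonads were near the limit of detection. Cyp11a1, which makes pregnenolone from cholesterol, had 15 counts over all libraries, Cyp11b1 (11-beta-hydroxylase) had 14, Cyp19a1 (aromatase) had 8 and Cyp11b2 (aldosterone synthase) had 3. Cyp21a1, the 21-hydroxylase, was low but above that limit, with 54 counts and up to 0.577 CPM in a mouse, and 36.9% of its sequence is shared with other genes, mainly a pseudogene. Cyp17a1, the 17-hydroxylase, was an exception with 95.8 CPM. Cyp27b1, which activates vitamin D, had 4 counts. Cyp51, the lanosterol demethylase of cholesterol synthesis, reached 317 CPM and Cyp2r1, a vitamin D 25-hydroxylase, 13.5 CPM.

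The sexes differ in several Cyp genes, and the levels here were those of female liver. Cyp4a12a, which is high in males, was at most 1.13 CPM in any mouse, whereas Cyp2b9, which is high in females, ranged from 382 to 558 CPM. Male-biased genes were not all that low, as Cyp2d9 ranged from 13.2 to 70.9 CPM and Mup20 from 42.6 to 104 CPM. The summed level was 70.6 to 160.6 CPM for 5 male-biased genes and 1681 to 3556 CPM for 6 female-biased genes. The summed level of 6 hepatocyte markers was 98520 to 121100 CPM, that of 5 macrophage markers 301 to 408 CPM and that of 5 B and T cell markers 3.21 to 6.89 CPM. In whole liver, fewer cells of a type and less RNA per cell cannot be told apart.

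Near-identical members limit what a count of a single gene can mean. Members had a median of 12.8% of their 31-base sequences in common with transcripts of other genes, 15 members had none in common, and 22 had at least 40%. Cyp3a41a had 96.1% of its sequences in common with Cyp3a41b and Cyp3a41b had 95.9% in common with Cyp3a41a, and their separate values rest on how reads were divided between them. Pairs or groups linked by at least 40% were Cyp2a4 with Cyp2a5, Cyp2c40 with Cyp2c67, Cyp2c68 and Cyp2c69, Cyp3a25 with Cyp3a59, Cyp3a41a with Cyp3a41b, Cyp4a10 with Cyp4a32, and Cyp4a12a with Cyp4a12b. Sums are given below for the Cyp2a, Cyp2c, Cyp3a41 and Cyp4a10 groups.

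The likeness reaches into the promoters. RefSeq promoters (GRCm38.p6, 250 bases before to 50 after the start) were found for 75 members, and 10 of them (13.3%) held the letters CAAAGTCCA, a form of the binding site of HNF4, on either strand, compared with 0.475% of all 32851 promoters. These were Cyp2c40, Cyp2c65, Cyp2c67, Cyp2c68, Cyp2c69, Cyp2c70, Cyp3a11, Cyp3a16, Cyp3a41a and Cyp3a41b. Duplicated genes are not independent in this count. The share of members counts a member with any matching promoter, whereas the share of all promoters counts single promoters. The site is shown in capitals with 20 bases on each side for the 4 linked Cyp2c genes, because they were also summed in the strain comparison, and for 4 Cyp3a genes, because their spread over mice was so unequal.
Cyp2c40 (chr19:39812831-39812879, minus strand): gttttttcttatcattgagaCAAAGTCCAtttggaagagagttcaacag
Cyp2c69 (chr19:39886816-39886864, minus strand): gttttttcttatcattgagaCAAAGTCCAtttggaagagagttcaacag
Cyp2c68 (chr19:39741150-39741198, minus strand): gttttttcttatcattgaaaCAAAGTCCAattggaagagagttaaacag
Cyp2c67 (chr19:39649139-39649187, minus strand): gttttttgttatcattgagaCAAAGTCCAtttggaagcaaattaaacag
Cyp3a41a (chr5:145720203-145720251, minus strand): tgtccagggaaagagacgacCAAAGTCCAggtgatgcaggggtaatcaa
Cyp3a41b (chr5:145584797-145584845, minus strand): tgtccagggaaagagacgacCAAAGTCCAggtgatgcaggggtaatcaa
Cyp3a16 (chr5:145469794-145469842, minus strand): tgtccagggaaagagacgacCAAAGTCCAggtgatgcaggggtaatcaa
Cyp3a11 (chr5:145879935-145879983, minus strand): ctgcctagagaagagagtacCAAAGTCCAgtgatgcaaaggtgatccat
The printed stretches of Cyp2c40 and Cyp2c69 are the same in every letter, as are those of Cyp3a41a, Cyp3a41b and Cyp3a16. A match is a description of letters and not a bound site.

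Next, the strains were compared at 3 to 4 months of age, which addresses whether the mt-Nd2 and mt-Nd5 mutations go with different levels of Cyp genes. Cyp4b1 was the sole member of 67 (1.49%) that passed the adjusted p-value of 0.05 in the quasi-likelihood test of edgeR, and it was lower in B6-mtALR. Over all 13372 genes tested, the share was 2.38%, with 0.935% higher and 1.44% lower in B6-mtALR. An unadjusted p-value under 0.05 was found for 11 members (16.4%) and for 21.4% of all genes. With genes that lack its adjusted p-value counted as not called, DESeq2 called 8 members (11.9%), compared with 7.89% of all genes. Of these, 7 (10.4%, against 4.08% of all genes) were higher in B6-mtALR, namely Cyp2c40, Cyp2c67, Cyp2c69, Cyp2d9, Cyp2d40, Cyp3a44 and Cyp4a10, and Cyp4b1 was lower (1.49%, against 3.81%). Limma-trend called no member. The median log2 fold change was 0.063 over the members, with 39 above and 28 below 0, and -0.0032 over all genes. The median over the members was -0.0061 after the trend with transcript length in each mouse (the length curve) was taken out. The fit included age, and as all B6-mtALR mice of this comparison were 3 months old, its strain term rests on 4 B6-mtALR and 2 B6-mtBPL mice, while the B6-mtBPL mice of 4 months add to the variance.

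Cyp4b1, a family 4 member that hydroxylates fatty acids and bioactivates furans in lung and other tissues, lies on chromosome 4 (115624725 to 115647723, minus strand, GRCm38). The B6-mtALR mice of 3 months had 16.0, 17.5, 12.7 and 16.4 CPM. The B6-mtBPL mice had 23.3 and 28.6 CPM at 3 months and 27.2 and 20.5 CPM at 4 months. All 4 B6-mtALR mice were thus below all 4 B6-mtBPL mice, whereas the B6-mtALR mice of 5 months, with 21.3, 20.6 and 22.4 CPM, lay within the range of B6-mtBPL. The log2 fold change was -0.74 ± 0.16 (SE, adjusted p = 0.0486, edgeR). The exact permutation test of log2 CPM, two-sided, gave p = 0.0286 for 4 against 4 mice, the smallest value this design allows, and p = 0.0303 for 7 against 4 mice, without adjustment for the 19 members tested in this way. The call of Cyp4b1 was lost under RLE scaling (adjusted p = 0.0518), limma-trend (0.0563), after the length curve of each mouse was taken out (0.108) and with all 11 mice (0.0797 with age). It was also lost without B6-mtALR replicate 4, 5 or 7 or B6-mtBPL replicate 1, 2 or 3, with fold changes of -0.87 to -0.59 and an adjusted p-value of up to 0.427 (without B6-mtBPL replicate 2). The slope of log2 CPM on log10 transcript length was 0.40 and 0.49 in the B6-mtBPL mice of 3 months and -0.42 to 0.16 in the B6-mtALR mice of that age, and its part in the comparison was not tested beyond this correction. The summed level of 5 endothelial markers was 262 to 312 CPM in B6-mtALR mice of 3 months and 356 to 495 CPM in B6-mtBPL mice. That of 5 stellate cell and fibroblast markers was 246 to 300 CPM and 303 to 415 CPM. Single markers differed in their log2 fold change between strains. The endothelial values were -1.36 (Stab2), -0.85 (Ptprb), -0.78 (Kdr), -0.43 (Pecam1) and 0.10 (Clec4g). The stellate cell and fibroblast values were -1.46 (Col1a1), -1.24 (Reln), -0.80 (Col3a1), -0.059 (Dcn) and 0.11 (Lrat). The part of these cell types in the levels of Cyp4b1 and of the scarce members was not tested.

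Groups that did not overlap were rare among the members. Besides Cyp4b1, Cyp2s1 was lower in all 4 B6-mtALR mice than in all 4 B6-mtBPL mice, so that 2 of 67 (2.99%) were lower in this way compared with 6.42% of all genes. Cyp2s1, a member found mainly outside the liver, was scarce, with 0.679, 0.577, 0.504 and 0.453 CPM in B6-mtALR and 0.958, 1.35, 0.972 and 1.22 CPM in B6-mtBPL. Its log2 fold change of -1.05 ± 0.30 did not pass the test (adjusted p = 0.0926, edgeR). Cyp2d9, a steroid 16-alpha-hydroxylase that is high in male liver, was the 1 member (1.49%) that was higher in all B6-mtALR mice of 3 months than in all B6-mtBPL mice, against 5.68% of all genes.

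Cyp2d9 was at 44.4, 55.1, 39.0 and 70.9 CPM in B6-mtALR mice of 3 months. The B6-mtBPL mice had 27.6, 29.5, 25.5 and 27.7 CPM, a narrow range below all of them. The B6-mtALR mice of 5 months, with 30.2, 13.2 and 27.3 CPM, did not share the higher level. The log2 fold change between strains was 0.87 ± 0.21 (adjusted p = 0.0650, edgeR), and 45.0% of the sequence of Cyp2d9 is shared with other genes.

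Of the 13 Cyp2c genes tested, each had a log2 fold change above 0 between strains, with a median of 0.40 and a range of 0.048 to 0.89, although none passed the adjusted threshold of edgeR. DESeq2 called Cyp2c40, Cyp2c67 and Cyp2c69 as higher in B6-mtALR (adjusted p = 0.0143 for Cyp2c69). Cyp2c enzymes epoxidise and hydroxylate arachidonic acid as well as drugs. Cyp2c40 had the lowest adjusted p-value among them, with 634, 559, 724 and 895 CPM in B6-mtALR mice of 3 months and 453, 364, 417 and 633 CPM in B6-mtBPL mice (log2 fold change 0.78 ± 0.22, adjusted p = 0.0912, edgeR). Cyp2c69 was at 825, 952, 927 and 1372 CPM in B6-mtALR and at 617, 474, 644 and 1284 CPM in B6-mtBPL (0.89 ± 0.29, adjusted p = 0.117). Its value was 0.43 with no age term and 0.82 after the length curve of each mouse was taken out. In both genes B6-mtBPL replicate 4 had a level within the range of B6-mtALR, and the groups overlapped.

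The 4 linked genes, whose promoter stretches are printed above, were also summed, since reads may be divided between them. The sum of Cyp2c40, Cyp2c67, Cyp2c68 and Cyp2c69 was 2183, 2158, 2403 and 3137 CPM in B6-mtALR mice of 3 months. It was 1650 and 1329 CPM in B6-mtBPL mice of 3 months and 1671 and 2728 CPM at 4 months. The log2 fold change of the sum was 0.72 ± 0.22 (adjusted p = 0.110, edgeR, chosen after the data were seen). The Cyp2c genes also had log2 fold changes above 0 in 13 of 13 cases between the ages of B6-mtBPL, with a median of 0.33, and both comparisons share the B6-mtBPL mice of 3 months. Between the ages of B6-mtALR, 7 lay above and 6 below 0, with a median of 0.040.

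Among the Cyp3a genes, which oxidise steroids and many drugs, 6 of 8 lay above 0 between strains. Cyp3a44 had the largest value of these, with 56.2, 138, 48.9 and 102 CPM in B6-mtALR mice of 3 months. The B6-mtBPL mice had 30.6, 18.8, 56.0 and 49.4 CPM, and the groups overlapped. Its log2 fold change of 1.79 ± 0.41 did not pass the threshold (adjusted p = 0.0552, edgeR). Cyp3a11 differed by 0.30 ± 0.17 (adjusted p = 0.354) and Cyp3a41b by 0.99 ± 0.82, with a range from 3.99 to 95.7 CPM over the mice. The sum of Cyp3a41a and Cyp3a41b was 326, 1355, 650 and 987 CPM in B6-mtALR mice of 3 months and 828, 280, 928 and 808 CPM in B6-mtBPL mice. The groups overlapped, and the sum differed by 0.57 ± 0.53 (adjusted p = 0.553, edgeR, chosen after the data were seen). Of single mice left out, B6-mtALR replicate 5 took the value of Cyp3a41b to 0.13, and B6-mtBPL replicate 2 took those of Cyp3a41b and Cyp3a41a to 0.35 and -0.018.

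The Cyp4a genes, which omega-hydroxylate fatty acids and are targets of PPARalpha, had log2 fold changes above 0 between strains in 4 of 4 cases, with a median of 0.55. Cyp4a10 had 407, 632, 506 and 912 CPM in B6-mtALR mice of 3 months and 327, 352, 228 and 446 CPM in B6-mtBPL mice (0.85 ± 0.33, adjusted p = 0.178, edgeR), and its sum with Cyp4a32 differed by 0.83 ± 0.33 (adjusted p = 0.186). Cyp4a14 ranged from 322 to 1614 CPM over the mice and differed by 0.41 ± 0.41 between strains, a value that fell to 0.020 without B6-mtALR replicate 7 and to 0.18 without B6-mtBPL replicate 1. Of 19 further PPARalpha target genes, 1 (5.26%) passed the test as higher in B6-mtALR, where 0.935% of all genes did, and none as lower, with a median of 0.16. The gene was Pdk4, an inhibitor of pyruvate oxidation, with 54.0, 33.4, 33.5 and 49.2 CPM in B6-mtALR and 9.11 to 11.1 CPM in B6-mtBPL (log2 fold change 2.05 ± 0.23, adjusted p = 0.0118). Pdk4 was also the 1 gene of the list (5.26%) that passed between the ages of B6-mtALR (-1.63 ± 0.29, adjusted p = 0.0353). It was lower at 5 months, as were 0.284% of all genes. No gene of the list passed between the ages of B6-mtBPL, where 2 of 19 and 10.7% of all genes had an unadjusted p-value under 0.05.

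**Figure D2:**
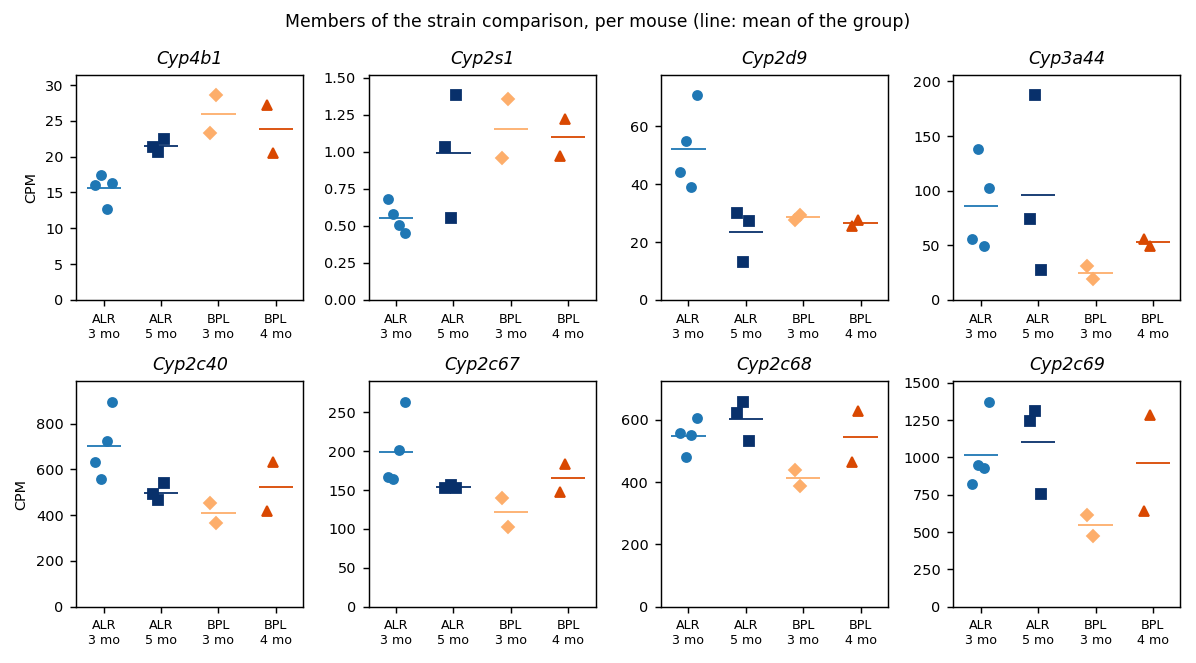
CPM per mouse of 8 Cyp genes in B6-mtALR mice of 3 and 5 months and B6-mtBPL mice of 3 and 4 months, with axes from 0 and a line at the mean of each group. Cyp4b1 and Cyp2s1 of B6-mtALR mice of 3 months lie below both B6-mtBPL groups, and Cyp2d9 lies above them at 39.0 to 70.9 CPM.

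None of the 10 members with the highest CPM passed the test of edgeR between strains. The largest log2 fold changes among them were those of Cyp2c69 (0.89), Cyp3a41a (0.56 ± 0.52), Cyp4a14 (0.41) and Cyp3a11 (0.30), of which Cyp2c69 was called by DESeq2. The remaining 6 were closer to 0. The log2 fold change was -0.034 ± 0.14 for Cyp2e1, -0.13 ± 0.13 for Cyp2d26, 0.048 ± 0.15 for Cyp2c29, -0.011 ± 0.10 for Cyp2f2, 0.12 ± 0.11 for Cyp2j5 and 0.14 ± 0.13 for Cyp2c37. Cyp2f2 bioactivates naphthalene, and Cyp2j5 epoxidises arachidonic acid. Cyp51, of which the counterparts in cholesterol synthesis are set by SREBP2, differed by 0.36 ± 0.20 (adjusted p = 0.330, edgeR). None of 22 further genes of cholesterol synthesis passed the test in any of the 3 comparisons. Of these 22, 2 had an unadjusted p-value under 0.05 between strains and 1 in each age comparison. Over all genes, the share was 21.4% between strains, 10.1% between the ages of B6-mtALR and 10.7% between those of B6-mtBPL. The remaining members named by size of change were Cyp1b1 (-0.83 ± 0.47), which oxidises estradiol, Cyp46a1 (-0.62 ± 0.29), the cholesterol 24-hydroxylase of neurons, and Cyp2b10 (-0.50 ± 0.30), a target of CAR. These 3 values moved when single B6-mtBPL mice of 3 months were left out. That of Cyp46a1 was -0.088 without replicate 1 and -1.01 without replicate 2, that of Cyp2b10 was -0.85 and -0.040, and that of Cyp1b1 was -1.41 and 0.14.

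The promoter of Cyp51 was the only member promoter with the sterol regulatory element ATCACCTCA, which 0.201% of all promoters held on either strand. It is printed with the element in capitals because it lies 81 to 89 bases before the start.
Cyp51 (chr5:4104758-4104806, minus strand): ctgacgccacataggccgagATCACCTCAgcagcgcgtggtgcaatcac

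Age was then compared within B6-mtALR, between 3 mice of 5 months and 4 mice of 3 months. No member of 67 passed the adjusted threshold of edgeR, compared with 0.793% of 13368 genes (0.509% higher and 0.284% lower at 5 months). An unadjusted p-value under 0.05 was found for 13 members (19.4%) and 10.1% of all genes, DESeq2 called 4 members (5.97%, against 2.25% of all genes), with Cyp2a4 and Cyp2e1 as higher (2.99%, against 1.3%) and Cyp2d9 and Cyp2u1 as lower (2.99%, against 0.95%), and limma-trend called none. The median log2 fold change was 0.15 over the members, with 47 above and 20 below 0, and 0.0084 over all genes. The groups did not overlap for 8 members (11.9%) that were higher at 5 months and 4 members (5.97%) that were lower, compared with 4.84% and 4.83% of all genes. The 8 were Cyp1a1, Cyp1b1, Cyp2a4, Cyp2a12, Cyp2a22, Cyp2c37, Cyp2e1 and Cyp4b1, and the 4 were Cyp2u1, Cyp2d9, Cyp2c40 and Cyp2c67.

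Cyp2e1 was at 6011, 6874 and 6957 CPM in B6-mtALR mice of 5 months and at 4965, 4913, 4078 and 5189 CPM at 3 months. All mice of 5 months were above all of 3 months, and the log2 fold change was 0.48 ± 0.14 (adjusted p = 0.215, edgeR). In B6-mtBPL mice it was at 4590 and 5165 CPM at 3 months and at 5722 and 7049 CPM at 4 months (0.39 ± 0.16, adjusted p = 0.4664). Cyp genes together held 2.55%, 2.71% and 2.50% of all counts in B6-mtALR mice of 5 months and 2.07% to 2.44% at 3 months. In B6-mtBPL they held 2.08% and 2.16% at 3 months and 2.27% and 2.47% at 4 months.

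Cyp2a4 and Cyp2a5 hydroxylate testosterone and coumarin, and they share more than 40% of their sequence. Cyp2a4 was at 509, 775 and 627 CPM at 5 months and at 338, 393, 318 and 465 CPM at 3 months in B6-mtALR (log2 fold change 0.76 ± 0.18, adjusted p = 0.110, edgeR). Cyp2a5 was at 787, 316 and 1212 CPM at 5 months and at 378, 442, 199 and 186 CPM at 3 months (1.37 ± 0.42, adjusted p = 0.243). Their order thus differed between mice, with B6-mtALR replicate 2 highest in Cyp2a4 and lowest of its age in Cyp2a5. Summed, they were at 1296, 1092 and 1839 CPM at 5 months and at 715, 835, 517 and 651 CPM at 3 months, without overlap. The sum rose by a log2 fold change of 1.06 ± 0.21 (adjusted p = 0.0492, edgeR, chosen after the data were seen). In B6-mtBPL the sum was 700 and 782 CPM at 3 months and 1359 and 941 CPM at 4 months (0.63 ± 0.20, adjusted p = 0.381).

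Cyp2u1, which hydroxylates long-chain fatty acids and lies on chromosome 3 (131288441 to 131303227, minus strand), was a low member that was lower in the older mice of both strains. It was at 2.91, 3.70 and 3.57 CPM in B6-mtALR mice of 5 months and at 7.85, 6.53, 10.95 and 5.77 CPM at 3 months. B6-mtBPL mice had 7.47 and 8.05 CPM at 3 months and 2.96 and 2.61 CPM at 4 months. Neither pair of groups overlapped, and the 6 mice of 3 months were all above the 5 older mice. The log2 fold change was -1.19 ± 0.24 in B6-mtALR (adjusted p = 0.0556, edgeR) and -1.48 ± 0.19 in B6-mtBPL (adjusted p = 0.0813), so that neither passed the threshold. DESeq2 called Cyp2u1 in both (adjusted p = 0.000691 in B6-mtALR).

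Cyp2d9, described above as higher in B6-mtALR mice of 3 months, had a log2 fold change of -1.14 ± 0.29 at 5 months (adjusted p = 0.142, edgeR), and Cyp3a16 and Cyp3a41b had the largest positive values among Cyp3a genes, 1.85 ± 0.94 and 1.42 ± 0.79, with groups that overlapped. Without B6-mtALR replicate 2 these were 0.53 and 0.47, and without B6-mtALR replicate 5 they were 3.58 and 2.298. The sum of Cyp3a41a and Cyp3a41b was 1197, 2041 and 296 CPM at 5 months and differed by 0.51 ± 0.56 (adjusted p = 0.833, edgeR). Cyp26a1 differed by -1.66, a value that rests on B6-mtALR replicate 5 and turned to 0.79 without it.

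The redox and heme partners of the P450 enzymes were read from the same fits. Por, which passes electrons to all microsomal P450 enzymes, was 1 of 9 redox genes tested (11.1%) that passed as higher at 5 months in B6-mtALR, where 0.509% of all genes did, and none passed as lower. Por was at 486, 335 and 532 CPM at 5 months and at 182, 242, 146 and 211 CPM at 3 months, with no overlap (log2 fold change 1.22 ± 0.20, adjusted p = 0.0265, edgeR). In B6-mtBPL it was at 222 and 355 CPM at 3 months and at 383 and 395 CPM at 4 months (0.43 ± 0.22, adjusted p = 0.540). No redox gene passed between strains or between the ages of B6-mtBPL, where 3 and 1 had an unadjusted p-value under 0.05. Over all genes, 21.4% had such a p-value between strains, 10.1% between the ages of B6-mtALR and 10.7% between those of B6-mtBPL. Of 12 genes of heme synthesis and breakdown, none passed in the 3 comparisons and 1 had an unadjusted p-value under 0.05 in each. Alas1, the first enzyme of heme synthesis, ranged from 38.5 to 309 CPM over the mice.

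Clock genes moved with age in the same mice. The list held the core clock genes and the PAR bZIP factors Dbp, Tef and Hlf, which bind promoters of several Cyp genes. In B6-mtALR, 6 of 17 passed as higher and 2 as lower at 5 months (47.1% in all), where 0.793% of all genes passed. Arntl, which encodes the clock activator BMAL1, was at 9.49, 14.0 and 8.57 CPM at 5 months and at 36.8, 31.8, 32.2 and 31.3 CPM at 3 months (log2 fold change -1.62 ± 0.18, adjusted p = 0.00323, edgeR). Tef was at 149, 68.4 and 157 CPM at 5 months and at 22.6, 30.1, 19.3 and 30.2 CPM at 3 months (2.298 ± 0.28, adjusted p = 0.00454). In B6-mtBPL, Arntl was at 21.8 and 21.8 CPM at 3 months and at 8.34 and 17.4 CPM at 4 months, and Tef at 31.9 and 52.5 CPM against 157 and 74.5 CPM. Per1 passed in that comparison as higher, 1 of 17 (5.88%, against 0.103% of all genes), with 3.29 ± 0.31 (adjusted p = 0.0383, edgeR). Npas2 passed between strains as higher in B6-mtALR, 1 of 15 (6.67%, against 0.935% of all genes), with 1.12 ± 0.19 (adjusted p = 0.0302, edgeR). An unadjusted p-value under 0.05 was found for 11 of 17 between the ages of B6-mtBPL (10.7% of all genes). Between strains it was found for 6 of 15 (21.4% of all genes). The hour of collection cannot be told apart from age or strain here. Its part in the levels of Cyp2u1, Cyp2a4, Cyp2a5 and Por and in the differences between strains was not tested.

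**Figure D3:**
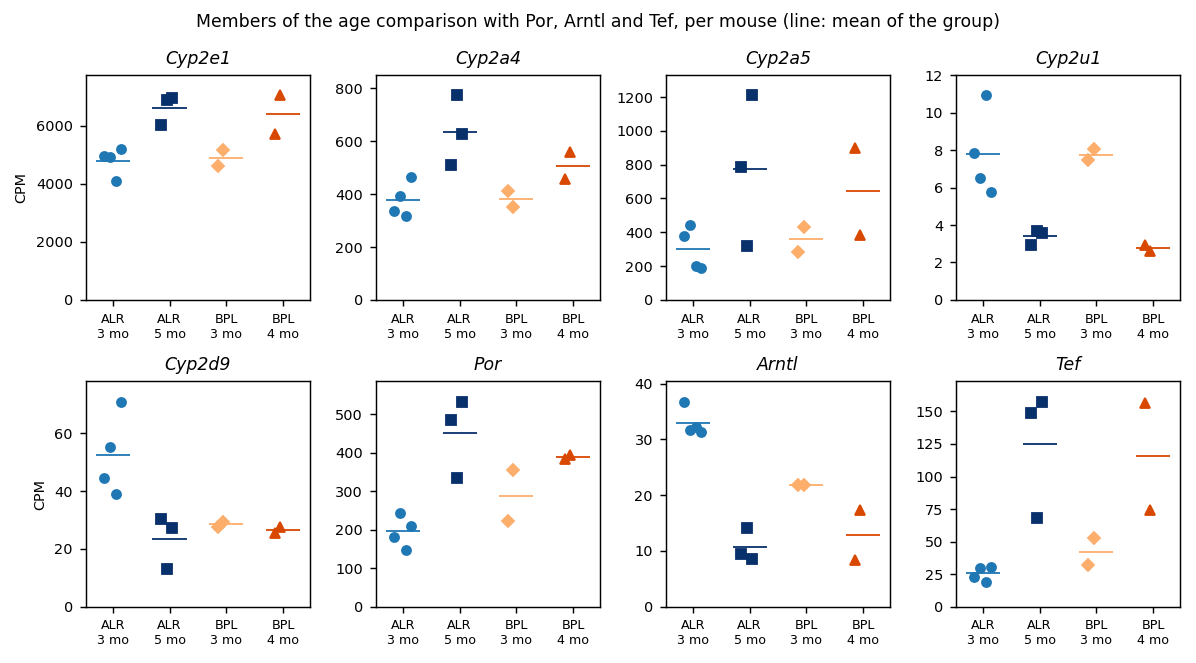
CPM per mouse of Cyp2e1, Cyp2a4, Cyp2a5, Cyp2u1 and Cyp2d9 with Por, Arntl and Tef, in the 4 groups of strain and age, with axes from 0 and a line at the mean of each group. Cyp2u1 and Arntl are lower, and Cyp2e1, Por and Tef higher, in B6-mtALR mice of 5 months than of 3 months, without overlap.

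Motifs of these factors were looked for on both strands of the 85 promoters of 75 members. A member was counted once if any of its promoters held the motif, whereas the share of all promoters counts single promoters. The D-box TTANGTAA, to which the PAR bZIP factors bind, was in 1 member (1.33%, Cyp2c38) and in 2.32% of all promoters. The E-box CACGTG was in 2 (2.67%, Cyp2j6 and Cyp4v3) and in 7.15% of all. The ROR element AATNAGGTCA was also in 2 (2.67%), against 0.314% of all promoters, and these were the linked genes Cyp3a25 and Cyp3a59, which are not independent. The PPAR repeat AGGTCANAGGTCA, which can overlap the ROR element, was in no promoter of a member and in 0.0396% of all. The window of 300 bases does not reach more distant sites.

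Of the listed regulators of Cyp genes, 1 of 21 tested (4.76%) passed between strains, where 2.38% of all genes did, and 1 of 22 (4.55%) between the ages of B6-mtALR, where 0.793% did. None of 22 passed between the ages of B6-mtBPL, where 6 of them and 10.7% of all genes had an unadjusted p-value under 0.05. Onecut1 (HNF6) was lower in B6-mtALR mice of 3 months, with 14.7, 11.5, 24.8 and 11.3 CPM compared with 142, 47.3, 72.0 and 15.8 CPM in B6-mtBPL (log2 fold change -2.61 ± 0.56, adjusted p = 0.0470, edgeR), and the groups overlapped. Cebpb was higher at 5 months in B6-mtALR (1.54 ± 0.25, adjusted p = 0.0190). The receptors Nr1i2 (PXR) and Nr1i3 (CAR) did not pass in any comparison, with log2 fold changes of -0.061 to 0.73 and 0.36 to 0.48. Of 12 pericentral hepatocyte genes, the zone in which Cyp2e1 and Cyp1a2 are made, 1 (8.33%, against 0.284% of all genes) passed as lower at 5 months in B6-mtALR (Slc1a4, -1.12 ± 0.20, adjusted p = 0.0353). Of 12 periportal genes, 2 (16.7%, against 0.509% of all genes) passed as higher at 5 months (Sds, 1.13 ± 0.21, adjusted p = 0.0425, and Pck1, 1.41 ± 0.27, adjusted p = 0.0497), and Cps1, 1 of 12 (8.33%, against 1.44% of all genes), passed as lower in B6-mtALR between strains (-0.76 ± 0.17, adjusted p = 0.0478). Neither zone had a call between the ages of B6-mtBPL, where 3 genes of each had an unadjusted p-value under 0.05. No pericentral gene had a call between strains, where 3 had such a p-value. Over all genes, 10.7% had one between the ages of B6-mtBPL and 21.4% between strains.

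Lastly, the ages were compared within B6-mtBPL, with 2 mice of 4 months and 2 of 3 months. Cyp26b1 was 1 member of 67 (1.49%) that passed the adjusted threshold, compared with 0.118% of 13615 genes (0.103% higher and 0.0147% lower at 4 months), and 11 members (16.4%) had an unadjusted p-value under 0.05 compared with 10.7% of all genes. DESeq2 called 3 members (4.48%, against 1.37% of all genes), Cyp26b1 and Cyp3a44 as higher (2.99%, against 0.874%) and Cyp2u1 as lower (1.49%, against 0.499%). The median log2 fold change was 0.12 over the members, with 45 above and 22 below 0, and 0.0055 over all genes. With 2 mice per group, values did not overlap for 21 members (31.3%) that were higher and 3 (4.48%) that were lower at 4 months, and for 22.2% and 20.9% of all genes. Among the members without a call in edgeR were Cyp3a44 (1.09 ± 0.23, adjusted p = 0.219), Cyp26a1 (1.49 ± 0.38, adjusted p = 0.298) and Cyp2a5 (0.84 ± 0.39, adjusted p = 0.504).

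**Figure D4:**
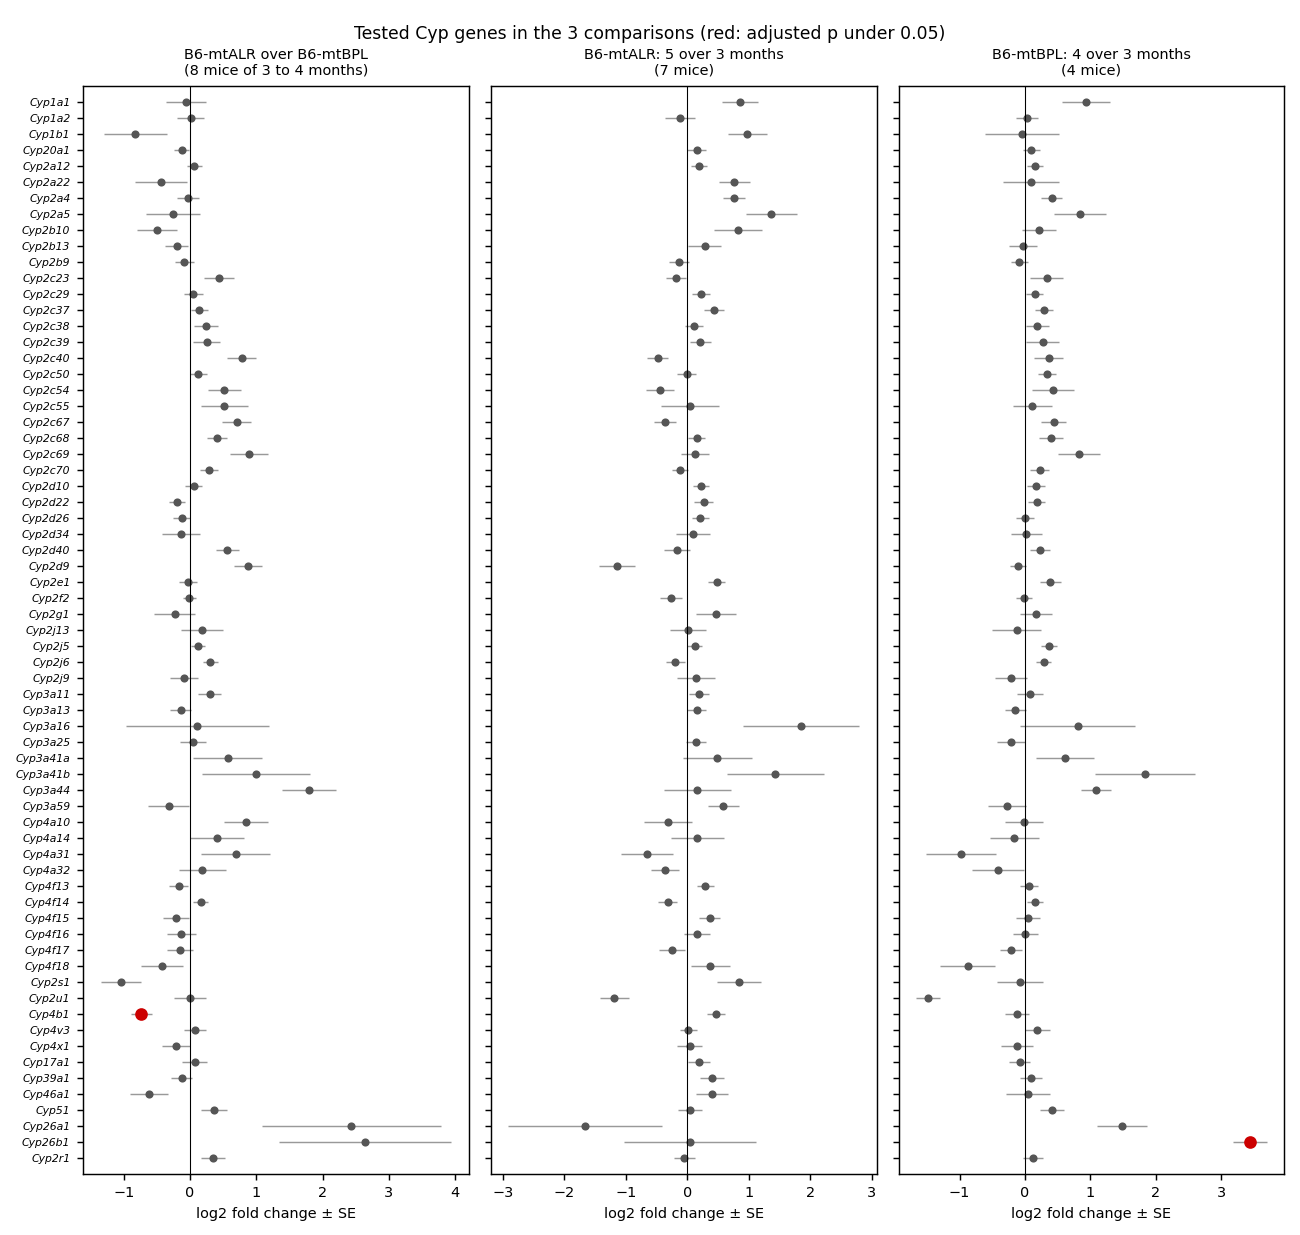
Log2 fold change ± SE (edgeR) of the 67 tested Cyp genes between strains (positive is higher in B6-mtALR), between 5 and 3 months in B6-mtALR and between 4 and 3 months in B6-mtBPL (positive is higher in older mice). Red points mark the members with an adjusted p-value under 0.05, Cyp4b1 at -0.74 and Cyp26b1 at 3.44, and the bars of Cyp26a1 and Cyp26b1 are the widest of the strain comparison.

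Cyp26b1 and its relatives Cyp26a1 and Cyp26c1 degrade retinoic acid, the active form of vitamin A, and Cyp26a1 is itself induced by retinoic acid. Cyp26b1, on chromosome 6 (84571414 to 84593908, minus strand), was at 3.10 and 4.34 CPM in B6-mtBPL mice of 3 months and at 48.0 and 32.8 CPM at 4 months. It rose by a log2 fold change of 3.44 ± 0.26 (adjusted p = 0.0258, edgeR). In B6-mtALR it was at 53.0, 10.4 and 8.34 CPM at 5 months and at 0.340, 70.1, 9.49 and 13.5 CPM at 3 months, and these groups overlapped over their full range (0.042 ± 1.07). Mice of 3 months alone thus spanned 0.340 to 70.1 CPM.

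Cyp26b1 and Cyp26a1 had the largest spread of all members of at least 1 CPM, with an SD of log2 CPM of 2.21 and 1.70 over the 11 mice, compared with a median of 0.30 for 63 members and 0.24 for 12207 genes of that level. The next were Cyp3a16 (1.69), Cyp3a41b (1.51), Cyp3a44 (1.00), Cyp3a41a (0.93), Cyp4a31 (0.89) and Cyp2a5 (0.86). The strain comparison gave 2.64 ± 1.30 for Cyp26b1 and 2.43 ± 1.35 for Cyp26a1, neither of which passed (adjusted p = 0.273 and 0.326, edgeR). Without B6-mtALR replicate 5, the value of Cyp26a1 was -0.0051 and that of Cyp26b1 1.04. The value of Cyp26b1 was 0.088 with no age term, 0.14 with all 11 mice and age, and 1.07 with limma-trend, and those of Cyp26a1 were 1.52, 0.88 and 0.98.

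Cyp26a1 was at 60.4, 8.54 and 4.33 CPM in B6-mtALR mice of 5 months and at 7.68, 269, 24.8 and 10.2 CPM at 3 months. B6-mtBPL mice had 18.7 and 9.88 CPM at 3 months and 52.3 and 28.0 CPM at 4 months. The same 3 mice, B6-mtALR replicates 1 and 5 and B6-mtBPL replicate 3, were the highest in Cyp26a1 (52.3 CPM or more, others 28.0 or less), Cyp26b1 (48.0 or more, others 32.8 or less) and Cyp26c1 (0.851 or more, others 0.383 or less). They come from 3 of the 4 groups of strain and age.

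Further retinoid genes, chosen after their values were seen, were highest in these 3 mice too. Rarb, a retinoic acid receptor gene that is induced by retinoic acid, was at 11.2 to 12.5 CPM in them and at 7.74 CPM or less in the others. Lrat, which esterifies retinol for storage in stellate cells, was at 44.6 to 48.7 CPM in them and at 32.1 CPM or less in the others. For each of the other stellate cell and fibroblast markers, Dcn, Col1a1, Col3a1 and Reln, 1 of the 3 was among the 3 highest mice. The part of stellate cell content in these levels was not tested.

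**Figure D5:**
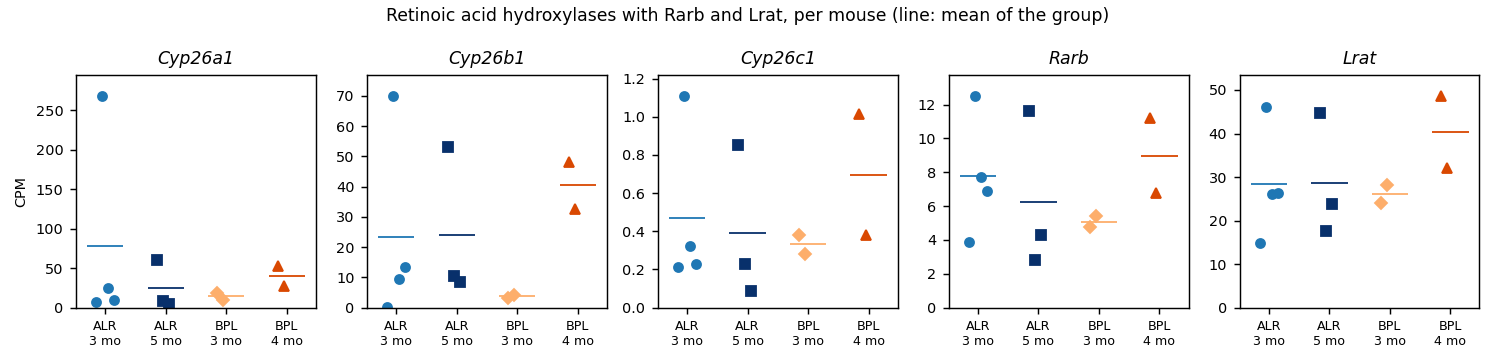
CPM per mouse of Cyp26a1, Cyp26b1 and Cyp26c1 with Rarb and Lrat, in the 4 groups of strain and age, with axes from 0 and a line at the mean of each group. In each panel the highest points are B6-mtALR replicates 1 and 5 and B6-mtBPL replicate 3, and Cyp26a1 of replicate 5 reaches 269 CPM.

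Cyp26a1 (chromosome 19, 37697798 to 37701536, plus strand) was the only member whose promoter held the repeat AGTTCANNNNNAGTTCA, the form with a spacer of 5 bases to which retinoic acid receptors bind, on either strand. Of all 32851 promoters, 8 (0.0244%) held it. The stretch is shown because Cyp26a1 reached 269 CPM in 1 mouse, with the repeat, read on the opposite strand, in capitals 16 to 32 bases before the start.
Cyp26a1 (chr19:37697756-37697807, plus strand): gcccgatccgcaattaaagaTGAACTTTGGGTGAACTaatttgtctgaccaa

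The 3 mice with the highest Cyp26 levels were also among the 4 highest in some of the variable Cyp3a genes, with B6-mtALR replicate 2 as the other. Cyp3a16, whose printed stretch equals that of Cyp3a41a, was at 102, 39.7, 38.2 and 29.1 CPM in B6-mtALR replicates 2 and 5, B6-mtBPL replicate 3 and B6-mtALR replicate 1, and at 3.21 to 14.3 CPM in the other mice. The same 4 mice were the highest in Cyp3a41b, with 42.9 to 95.7 CPM compared with 14.2 CPM or less. For Cyp3a41a, Cyp3a44 and the sum of Cyp3a41a and Cyp3a41b, the 4 highest were B6-mtALR replicates 1, 2, 5 and 7, so that B6-mtBPL replicate 3 was not among them. Each gene shares sequence with others, from 27.3% for Cyp3a16, mainly with Cyp3a11, to 48.4% for Cyp3a44 and over 95% for the pair named above. How reads were divided between them was not tested beyond the sum.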

How the data were processed

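Liver RNA was sequenced by the authors as single-end reads of 75 bases after poly(A) enrichment. Per the labels, reads were pseudo-aligned with kallisto 0.44.0 on the mm10 assembly, and the transcript release is not given in the sources used here. The authors deposited estimated counts per transcript without normalisation, along with TPM values that kallisto scales for transcript length and depth. TPM served here for the abundance-weighted transcript length only. Of 96626 transcripts, 95213 (98.5%) matched GENCODE M21, with at least 99.6% of the counts of each mouse, and estimated counts were summed per gene and rounded.

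Genes were filtered with filterByExpr (minimum count 10, minimum total 15), scaled by TMM and tested across all genes by quasi-likelihood (edgeR 4.0.16, R 4.3.3), with Benjamini-Hochberg adjustment and a threshold of 0.05. The strain fit held the 8 mice of 3 to 4 months modelled by age and strain as in the study. The age fits held the 7 B6-mtALR or the 4 B6-mtBPL mice. CPM values are TMM-scaled over the 11 mice, log2 CPM has a prior count of 0.5, and SE was derived from the quasi-likelihood statistic. Single values were compared by exact permutation tests (scipy 1.17.1). Since each library came from a separate mouse, p-values measure the spread between mice.

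The members and gene lists were chosen with earlier results of these data known. Named members were those with an adjusted p-value under 0.05, the 5 largest changes per direction and the 10 highest levels (strains), the 3 largest changes per direction where none passed (ages), and the 8 with the largest spread. Other members were named after their values were seen. Alternatives were DESeq2 1.42.0, RLE scaling, limma-trend (limma 3.58.1), no filter, a length curve per mouse (lowess, span 0.3), no age term, all 11 mice, a replicate block, each mouse left out, and near-identical members summed (added after the data were seen). In each comparison, a gene to which DESeq2 gave no adjusted p-value was counted as not called. The fits were also run on simulated counts with known changes. These counts held no trend with transcript length, and no result above rests on them. No sequencing batch is named in the labels. Promoters came from RefSeq (GRCm38.p6), and gene positions from GENCODE M21 (GRCm38).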

Additional observations from a re-analysis of the deposited data

Results flagged for a closer look

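For 24 members and the share of Cyp counts, 50 groups of mice were searched for a mouse far from the others of its strain by Dixon's criterion, which by chance marks about 1 group in 20. This gave 4 values. Cyp26a1 was at 268.6 CPM in B6-mtALR replicate 5, with 60.4 CPM in the next mouse of the strain. Cyp3a16 was at 102 CPM in B6-mtALR replicate 2, with 39.7 CPM in the next. Cyp4a31 was at 20.4 CPM in B6-mtALR replicate 7, with 10.2 CPM in the next. Cyp3a41a was at 275.7 CPM in B6-mtBPL replicate 2, below the 795 CPM of the next lowest mouse of that strain.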

How the results depend on the processing

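The number of Cyp genes called between strains, 1 in edgeR, was 8 with DESeq2, 3 with no filter and 2 with no age term. It was 0 with RLE scaling, with limma-trend and after the length curve was taken out. It was also 0 with all 11 mice, both with age and without age, and 0 to 4 when single mice were left out. Without B6-mtALR replicate 6 the 4 were Cyp4b1, Cyp3a44, Cyp2d40 and Cyp2d9, and without B6-mtALR replicate 7 the 1 called was Cyp2d9. Over all genes the 318 calls became 1055 with DESeq2, 198 with no age term, 11 after the length curve was taken out, 14 with all 11 mice and age, 0 without age in all 11 mice, and 0 (without B6-mtBPL replicate 2) to 572 (without B6-mtALR replicate 6) when single mice were left out. It was 2 without B6-mtBPL replicate 1, 7 without B6-mtALR replicate 5 and 8 without B6-mtALR replicate 4. The cause of these differences was not tested.

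Replicate numbers are shared by the strains. The deviations of mice with the same number from their strain means had correlations of -0.34, -0.26, 0.13 and -0.14. Age was not removed from these deviations, and mice with the same number differed in age. The correlations therefore cannot decide whether the numbers pair the mice, and the numbers were taken as names only. With the replicate block in all 11 mice, 0 Cyp genes and 0 of all genes were called, and with the block and the length curve taken out the counts were 0 and 0. The block turned the sign of Cyp26b1 (-0.64, and -0.49 with the length curve), Cyp26a1 (-0.98 and -1.05), Cyp1b1 (0.036 and 0.25), Cyp2e1 (0.15 and 0.082), Cyp3a41a (-0.0052 and -0.039) and Cyp2d26 (0.030 with the block alone).

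The sign also turned for Cyp3a41b (-0.19), Cyp2c29 (-0.023), Cyp2c37 (-0.0084), Cyp2f2 (0.0038) and Cyp2j5 (-0.071) with no age term, for Cyp2c29 after the length curve was taken out (-0.0226) and for Cyp2j5 with all 11 mice with age (-0.052) and without (-0.024). When single mice were left out, the log2 fold change between strains ranged from -0.0051 to 2.98 for Cyp26a1, from -1.41 to 0.14 for Cyp1b1, from -0.11 to 0.046 for Cyp2e1, from -0.018 to 1.56 for Cyp3a41a, from -0.033 to 0.13 for Cyp2c29 and from -0.045 to 0.016 for Cyp2f2. None of these genes passed the test between strains. In 294 of 339 alternative values of the 19 genes named, direction and side of the threshold were kept. Only Cyp4b1 of these genes had a call to lose, and it lost that call in 13 alternatives. For the other genes, keeping the side of the threshold meant only that no call was made, so the share does not measure how stable a call was.

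Between the ages of B6-mtALR, 0 Cyp genes became 4 with DESeq2, 1 with no filter (Cyp2u1), 1 with near-identical members summed and 0 to 1 when single mice were left out (Cyp2a5 without replicate 2, Cyp2a22 without replicate 5, Cyp2u1 without replicate 7), and the 106 calls over all genes became 301 with DESeq2 and 39 to 121 without single mice. Cyp26a1 ranged from -3.60 to 0.79 in that comparison. Between the ages of B6-mtBPL, 1 Cyp gene became 3 with DESeq2 and 1 to 8 without single mice (5 without replicate 3 and 8 without replicate 4), and the 16 calls over all genes became 187 with DESeq2, 8 after the length curve was taken out and 7 to 332 without single mice. The log2 fold change of Cyp26b1 was 3.14 to 3.69 under the 9 alternatives of that comparison, and it was called in each of those that kept all 4 mice. All of these alternatives drew on the same 4 mice, so they do not show how far further mice of these ages would vary. Where 1 mouse was left in a group, that mouse was taken to vary like the others. Members near 1 CPM, such as Cyp1b1 with 233 counts and Cyp2s1 with 226 counts over the 11 mice, rest on few reads per mouse.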
